A study of Mus musculus with 8 samples.

Results

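The genes described here are 10 factors known from pluripotent cells and from reprogramming: Pou5f1, Sox2, Nanog, Zfp42, Esrrb, Tfcp2l1, Myc, Mycn, Lin28a and Lin28b. They were chosen by gene symbol, and they are 10 of the 55536 genes in the table of read counts. RNA was measured in MIN6, an insulin-secreting line that was derived from a mouse β-cell tumour, with wild-type genotype per the labels. Cells of the 4 control libraries were given pcDNA 3 with no insert, and cells of the 4 other libraries were given pGloMyc-Klf4, a plasmid for Klf4. Both transfections lasted 48 h and used Lipofectamine 3000. Both groups are transient transfections of 1 cell line, the share of cells that took up a plasmid is not given in the sources used here, and the 2 backbones differ by name, so the backbone and Klf4 cannot be told apart. The plasmid name contains "Myc", and the labels do not say what it stands for. Replicates 1 and 2 of each group made up batch 1, and replicates 3 and 4 made up batch 2. The labels call the replicates biological, but do not say how the cultures were separated, so the p-values measure the spread between these libraries.

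In embryonic stem cells, Pou5f1 (Oct4), Sox2 and Nanog form a core circuit that maintains pluripotency, and Klf4, Esrrb, Tfcp2l1 and Zfp42 (Rex1) belong to the naive state around that core. Forced expression of Pou5f1, Sox2, Klf4 and Myc turns somatic cells into pluripotent cells, and Lin28a and Nanog have been used as alternative or additional factors. Differentiated β-cells are not known for an active core circuit, while MYC family members control growth and LIN28 proteins block the maturation of let-7 microRNAs in many tissues.

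The libraries held 45417853 to 52731176 counts, and totals did not differ between groups beyond their spread (two-sided exact permutation test, p = 0.229). More genes had at least 1 count in the Klf4-transfected libraries, 26740 ± 338.5 against 24970 ± 390 (SD, n = 4 each; two-sided exact permutation test, p = 0.0286, the smallest that 4 against 4 allows). Klf4 itself stood at 36.1 to 42.8 CPM (read counts relative to the library's total, scaled with TMM factors) in the controls and at 4532 to 5853 CPM after transfection, a count in which plasmid and endogenous transcripts cannot be told apart. Of the 18266 genes that passed the filter on low counts, 6684 were called changed, 36.6% of those tested, by edgeR's quasi-likelihood test with a batch term at an adjusted p under 0.05. Of the tested genes, 21.1% were called higher after Klf4 transfection and 15.5% lower. Calls were 57.7% higher ones, and with scaling factors taken from abundant genes alone they were 72.8% higher ones. The median log2 fold change was -0.01 over all tested genes and 0.67 over those called higher.

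The β-cell identity of the line showed in its markers: insulin genes Ins1 and Ins2 and 6 other β-cell markers were read in every library and summed to 25120 to 31870 CPM in controls and 23470 to 32150 CPM after Klf4 transfection. Of these 8 markers, all tested, 4 were called lower and none higher, against 15.5% and 21.1% of all tested genes. Mafa (log2 fold change -0.18) and G6pc2 (-0.13) moved most. The 4 markers of other islet cells summed to 59.5 to 89.0 and 54.7 to 94.9 CPM, with 2 tested and none called. Of the markers of cell types outside the islet, some were called higher and none lower, against the same shares of all tested genes. Others were not called or not tested. The 6 keratinocyte markers summed to 7.48 to 8.83 CPM in controls and 85.3 to 114.9 CPM after Klf4 transfection. Of 3 that were tested, 2 were called higher (Krt14 and Sbsn) and Krt10 was not called, while Ivl had no read in any library. The 5 fibroblast markers summed to 2.57 to 3.85 and 20.2 to 26.5 CPM. Here too 3 were tested, with 2 called higher (Dcn and Col1a1) and Col1a2 not called, and Lum had no read in any library. The 4 endothelial markers summed to 0.267 to 0.365 and 0.619 to 1.22 CPM, with 2 tested, Cdh5 called higher and Tek not called. The 4 leukocyte markers summed to 8.79 to 9.74 and 9.51 to 11.7 CPM. Of 3 that were tested, Cd79a was called higher, and Cd68 and Cd3e were not called. Krt14, Dcn and Cdh5 were at or near no reads in the controls and reached the filter only through the Klf4-transfected libraries, so their calls are a description. The part of any of these cell types in the results on the 10 factors was not tested. In bulk RNA, a change in the number of cells of a type and a change in RNA per cell cannot be told apart.

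The stretches before the transcription starts are printed for 5 of the 10 factors, because 4 of them rose with Klf4 and the other, Sox2, was read only after Klf4 transfection. KLF proteins bind GC-rich words of the CACCC-box type, and MYC proteins bind the E-box CACGTG. Searched on both strands of the 250 bases before each RefSeq start (build GRCm38.p6) were CACCC, CCACACCC (which contains CACCC), CCACGCCC (which does not) and CACGTG. Capitals mark these words or their reverse complements, and each line reads 5′ to 3′ on the gene's strand.
Tfcp2l1, chr1:118627695-118627944, plus strand: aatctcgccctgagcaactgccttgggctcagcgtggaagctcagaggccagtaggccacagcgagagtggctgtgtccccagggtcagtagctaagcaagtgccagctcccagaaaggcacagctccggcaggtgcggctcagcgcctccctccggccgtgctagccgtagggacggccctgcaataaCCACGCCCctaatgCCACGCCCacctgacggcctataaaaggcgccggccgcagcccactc
Esrrb, chr12:86360867-86361116, plus strand: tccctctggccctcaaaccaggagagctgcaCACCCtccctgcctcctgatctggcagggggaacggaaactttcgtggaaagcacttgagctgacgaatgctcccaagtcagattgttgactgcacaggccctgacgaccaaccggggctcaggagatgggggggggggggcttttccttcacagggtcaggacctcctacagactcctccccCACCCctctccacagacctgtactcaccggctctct
Lin28a, chr4:134018842-134019066, minus strand: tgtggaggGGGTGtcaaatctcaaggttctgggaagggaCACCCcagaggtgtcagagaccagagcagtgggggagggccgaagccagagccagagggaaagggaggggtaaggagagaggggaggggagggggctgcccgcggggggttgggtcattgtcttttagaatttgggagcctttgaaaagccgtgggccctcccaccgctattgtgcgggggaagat
Mycn, chr12:12941915-12942086, minus strand: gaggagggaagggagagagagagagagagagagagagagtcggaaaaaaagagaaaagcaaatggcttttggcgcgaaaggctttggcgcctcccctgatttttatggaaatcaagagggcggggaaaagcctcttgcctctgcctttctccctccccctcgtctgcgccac
Sox2, chr3:34649745-34649994, plus strand: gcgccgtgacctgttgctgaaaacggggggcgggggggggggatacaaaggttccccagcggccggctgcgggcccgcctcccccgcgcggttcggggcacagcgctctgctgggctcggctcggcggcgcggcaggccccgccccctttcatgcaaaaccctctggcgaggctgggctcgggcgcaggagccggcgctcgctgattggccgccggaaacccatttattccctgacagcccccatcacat

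The window of Tfcp2l1 held CCACGCCC 2 times, 61 to 54 and 47 to 40 bases before the start, and 4.79% of all 32851 windows held that word at least once and 0.615% at least 2 times. Both the Esrrb and the Lin28a stretch held CACCC 2 times, a word found in 52.0% of windows, with 2 or more in 21.1%. A further Esrrb window, at a start inside the gene, held CACCC 1 time. The Lin28a and Mycn lines stop 26 and 79 bases before the RefSeq start, where GENCODE places the first exon. Sox2 held none of the 4 words in its window, which lies at a RefSeq start upstream of the GENCODE one. Other GC-rich words were not searched in any window. Mycn had 1 CACCC, 54 to 50 bases before its RefSeq start and so past the end of its line, and Lin28b, whose window lies at a start inside the gene, had 1 CACGTG, present in 6.02% of windows. Pou5f1 had 5 CACCC at 1 of its starts and none of the 4 words at the other. Nanog had 2 overlapping windows that held the same CCACGCCC, the downstream one with 3 CACCC besides, and the Zfp42 window held CACCC 3 times, 1 of them inside a CCACACCC, a word in 3.2% of windows. Windows matched 9 of the 10 factors, all but Myc. Words were found both at factors that rose and at factors without reads, and no binding was measured.

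The core circuit was at or near no reads. Nanog, the homeodomain factor that stabilises the pluripotent state (chr6:122707489-122714633), had 1 read in control replicate 4 and 0 in the 7 other libraries. Zfp42, a zinc-finger marker of the naive state (chr8:43295063-43306980), had 0 reads in all 8 libraries. A count of 0 allows a level of up to 0.0568 to 0.0662 CPM depending on the library (3 counts of the total, covering counting error only).

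Pou5f1 encodes the POU factor Oct4 (chr17:35506018-35510772). It had 0, 3, 2 and 3 reads in control replicates 1 to 4 and 6, 5, 5 and 7 reads in the Klf4-transfected ones. The groups did not overlap, but the reads were few: 23 against 8, a ratio of 2.75 per total count with a 95% exact Poisson interval of 1.19 to 7.11 that covers counting error only. Pou5f1 did not pass the filter, and with no filter edgeR's adjusted p was 0.322. The antisense gene Gm19553 covers 317 of its exonic bases, and the strand setting of the counting is not given in the sources used here.

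Sox2, the HMG-box partner of Oct4 and a factor of neural and endodermal progenitors (chr3:34650405-34652461), had 0 reads in all 4 control libraries. After Klf4 transfection it had 14, 12, 9 and 8 reads, or 0.271, 0.265, 0.171 and 0.152 CPM, so no library of the Klf4 group was as low as a control. Against a floor of 3 counts per control library (0.062 CPM) the mean after transfection, 0.215 CPM with an SD of 0.062 (n = 4), was higher by at least 3.46-fold. Sox2 also failed the filter, and with no filter its adjusted p in edgeR's quasi-likelihood test was 1.02e-06. Reads in every Klf4-transfected library were found for 418 of the 25658 genes with 0 reads in all controls (1.63%), and 102 of these genes reached at least 8 reads in each, as Sox2 did. In the opposite direction, of 23916 genes with 0 reads in all Klf4-transfected libraries, 10 were read in every control library and none reached 8. Sox2ot, a noncoding gene that spans Sox2 on the same strand without sharing exons, had 0 reads in the controls and 0, 2, 1 and 0 after Klf4 transfection.

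**Figure D1:**
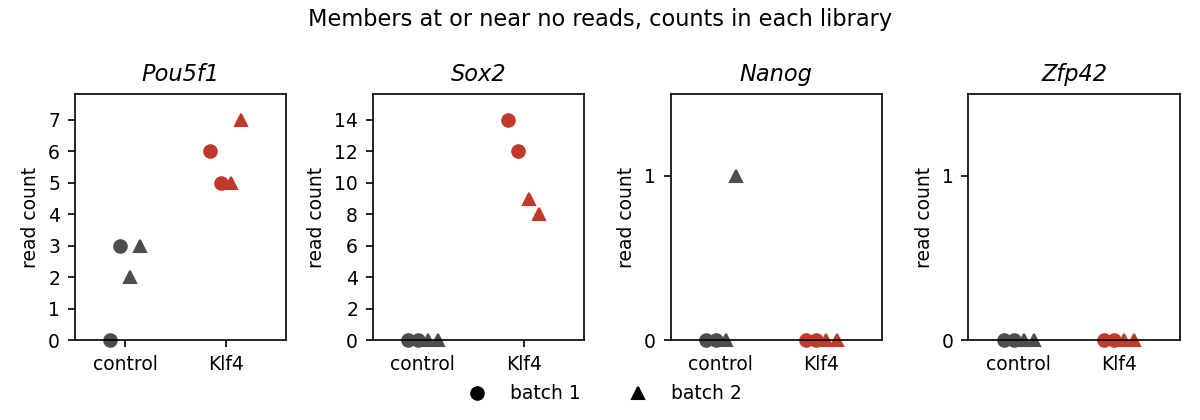
Read counts of Pou5f1, Sox2, Nanog and Zfp42 in each library (vertical axis, reads, scaled per gene) for the control and Klf4-transfected groups, with circles for batch 1 and triangles for batch 2. Sox2 had 0 reads in every control and 8 to 14 after Klf4 transfection, Pou5f1 0 to 3 and 5 to 7, and Nanog and Zfp42 1 and 0 reads in all.

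The 6 other factors passed the filter, and 5 of them were called higher after Klf4 transfection: Esrrb, Tfcp2l1, Myc, Mycn and Lin28a. Against this count stands the 36.6% of all tested genes that were called and the 21.1% called higher. Among the genes called higher, the log2 fold changes of the 5 factors lay between percentile 45.8 (Tfcp2l1) and 56.4 (Esrrb), near the middle. The Klf4-transfected and control libraries did not overlap for Esrrb, Tfcp2l1, Myc and Mycn, as for 26.1% of all tested genes.

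Esrrb is an orphan nuclear receptor that in embryonic stem cells acts downstream of the same circuit as Klf4 (chr12:86361117-86521628). It was at 1.42, 1.56, 2.45 and 2.28 CPM in control replicates 1 to 4 and at 3.14, 2.89, 4.15 and 3.94 CPM in the Klf4-transfected ones. The groups did not overlap, and in both groups the libraries of batch 2 were the higher ones. The mean rose from 1.93 ± 0.51 to 3.53 ± 0.61 CPM (SD, n = 4), a log2 fold change of 0.88 ± 0.13 (SE; edgeR's quasi-likelihood test, adjusted p = 5.43e-06).

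Tfcp2l1 is a grainyhead-type transcription factor that LIF and STAT3 induce in naive cells, and it is also a factor of ductal epithelia (chr1:118627945-118685168). Its control levels were 14.9, 17.1, 12.2 and 10.98 CPM, and those after Klf4 transfection were 22.5, 20.7, 18.9 and 18.6 CPM. The groups did not overlap, and here the libraries of batch 2 were the lower ones in both groups. The log2 fold change was 0.56 ± 0.07 (SE; edgeR's quasi-likelihood test, adjusted p = 3.49e-07), with means of 13.8 ± 2.8 and 20.2 ± 1.8 CPM (SD, n = 4). Of 3 small annotated genes that overlap Tfcp2l1, Gm22094, Gm28882 and Gm23497, none had a read in any library.

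Myc encodes the bHLH factor c-MYC (chr15:61985391-61990374). It was at 4.10, 3.90, 3.69 and 2.90 CPM in the controls and at 6.29, 7.58, 6.07 and 6.62 CPM after Klf4 transfection. All 4 transfected libraries lay above all controls. The log2 fold change was 0.86 ± 0.10 (SE; edgeR's quasi-likelihood test, adjusted p = 3.73e-07), which is 1.82-fold with a 95% interval of 1.57 to 2.11. In reads, Myc had 140 to 193 in the controls and 319 to 349 in libraries where Klf4 alone took 4532 to 5853 CPM. Whether any of these reads came from the plasmid was not tested.

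Mycn, the family member of neural and embryonic progenitors (chr12:12936093-12941914), was at 6.42, 6.59, 6.37 and 6.34 CPM in the controls, the narrowest spread among the tested factors. After Klf4 transfection it was at 9.04, 9.01, 11.2 and 12.1 CPM, again with no overlap. The 2 transfected libraries of batch 2 were the highest. The mean rose from 6.43 ± 0.11 to 10.3 ± 1.6 CPM (SD, n = 4), a log2 fold change of 0.68 ± 0.08 (SE; edgeR's quasi-likelihood test, adjusted p = 6.77e-07).

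Lin28a and Lin28b encode paralogous RNA-binding proteins that bind let-7 precursors. Lin28a (chr4:134003330-134018841) was at 3.44, 2.20, 1.79 and 1.62 CPM in the controls and at 3.91, 3.73, 3.90 and 3.03 CPM after Klf4 transfection. The groups overlapped, since control replicate 1 lay above Klf4-transfected replicate 4, but they did not overlap within either batch. The log2 fold change was 0.71 ± 0.15 (SE; edgeR's quasi-likelihood test, adjusted p = 0.000819), the widest error of the tested factors. The gene Gm13061 on the opposite strand shares 234 bases, 5.86% of the Lin28a exons, and had 0, 1, 7 and 4 reads in the controls and 4, 5, 5 and 13 after Klf4 transfection, against 78 to 205 for Lin28a.

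Lin28b (chr10:45376620-45486395) was at 19.4, 18.7, 20.7 and 20.4 CPM in the controls and at 18.6, 18.9, 17.04 and 17.7 CPM after Klf4 transfection. The groups overlapped over all libraries and in batch 1, not in batch 2. Lin28b did not pass the threshold: its log2 fold change was -0.14 ± 0.06 (SE; edgeR's quasi-likelihood test, adjusted p = 0.0581), with a 95% interval of -0.25 to -0.02. The call was near the threshold, and Lin28b was called lower without control replicate 1 (adjusted p = 0.0422), without control replicate 2 (0.0144) or without Klf4-transfected replicate 2 (0.0325). Its interval and that of Lin28a, 0.39 to 1.04, did not meet, and the difference between the paralogs was not tested.

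**Figure D2:**
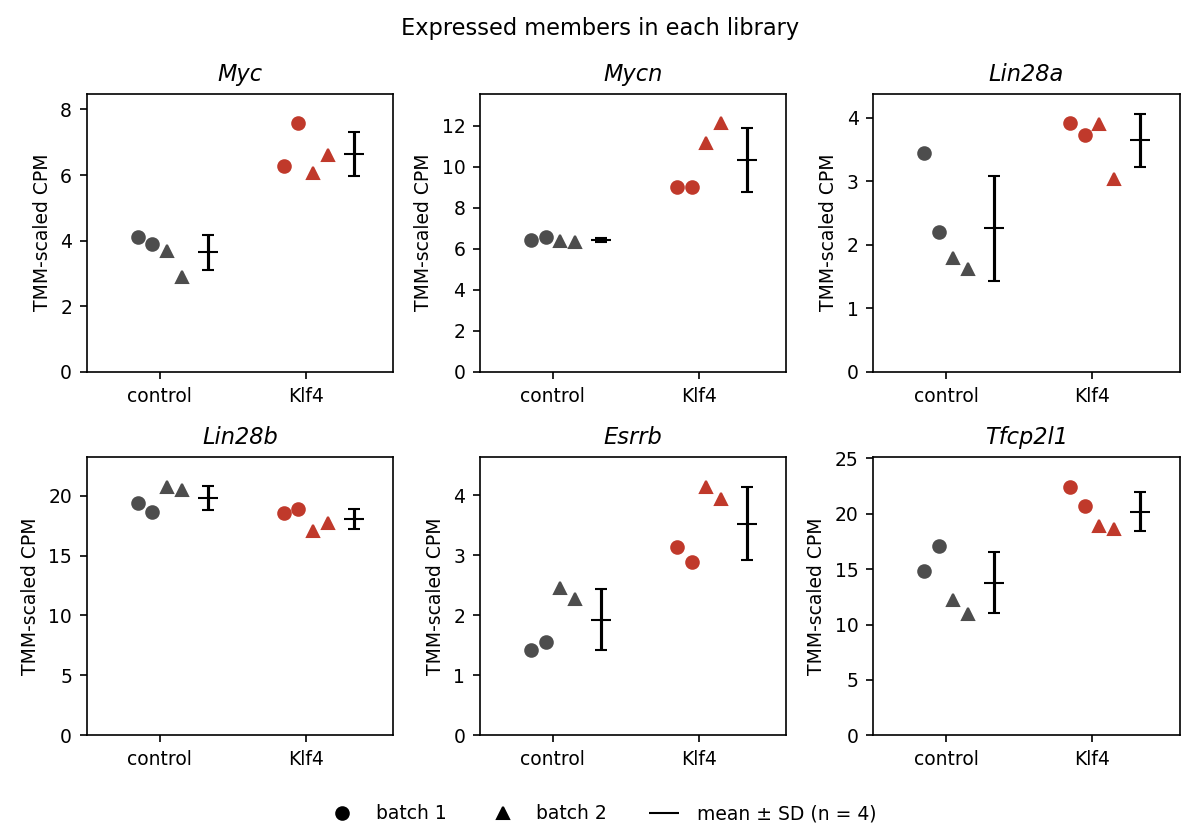
TMM-scaled CPM of the 6 tested factors in each library (vertical axis from 0, scaled per gene), control against Klf4-transfected, with circles for batch 1, triangles for batch 2 and bars for the mean ± SD of 4 libraries. Esrrb, Tfcp2l1, Myc and Mycn show no overlap between groups, Lin28a overlaps through control replicate 1 at 3.44 CPM, and Lin28b overlaps near 19 CPM.

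Within batches, the 5 called factors were higher after Klf4 transfection in both. In batch 1 and batch 2, the log2 fold change of Esrrb was 1.01 and 0.77, that of Tfcp2l1 0.43 and 0.69, and that of Myc 0.79 and 0.94. For Mycn it was 0.47 and 0.87, and for Lin28a 0.44 and 1.03, of which the value in batch 1 did not pass the threshold (edgeR's adjusted p = 0.0945). Lin28b was at -0.02 in batch 1 and at -0.25 in batch 2, where it passed (edgeR's adjusted p = 0.00758). None of the 6 passed the test of the difference between batches (edgeR's interaction term, adjusted p from 0.266 for Mycn to 0.856 for Myc), which called 0.766% of all tested genes. At an unadjusted p under 0.05, that term held for 4 of the 6 (Mycn, Tfcp2l1, Lin28b and Lin28a) and for 10.6% of all tested genes, and with DESeq2's Wald test none passed after adjustment.

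**Figure D3:**
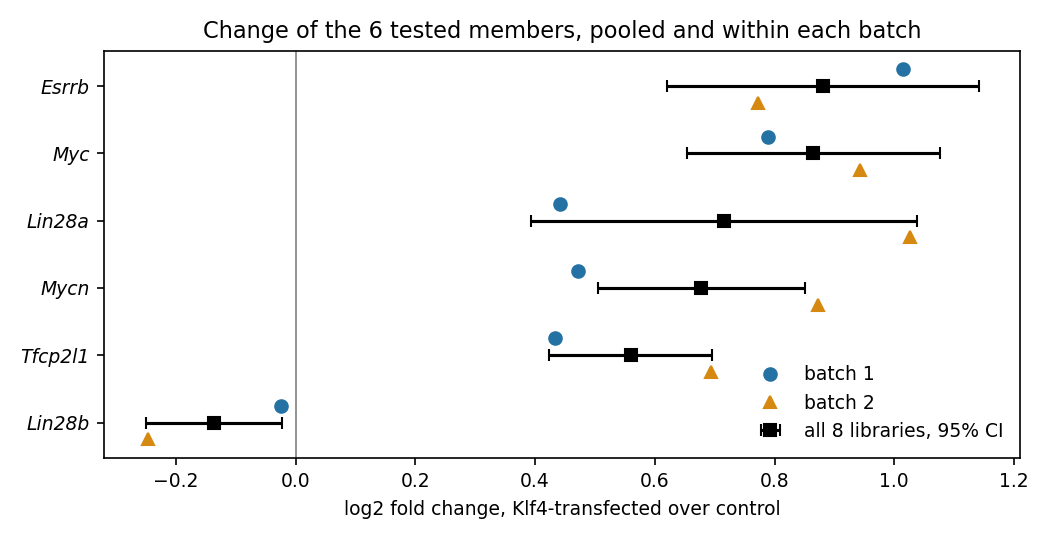
Log2 fold change of the 6 tested factors, Klf4-transfected over control: squares with 95% intervals for all 8 libraries, circles for batch 1 and triangles for batch 2. The intervals of 5 factors lie above 0, from 0.39 at the lowest bound (Lin28a), and that of Lin28b reaches from -0.25 to -0.02.

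Levels were compared between the factors as CPM per kilobase of exon, with the mean ± SD of 4 libraries. In the controls the order was Lin28b (2.19 ± 0.11), Mycn (1.95 ± 0.03), Tfcp2l1 (1.46 ± 0.29), Myc (1.34 ± 0.19), Lin28a (0.566 ± 0.206), Esrrb (0.319 ± 0.085) and then Pou5f1 (0.018 ± 0.013). The ranges of Tfcp2l1 and Myc overlapped, as did those of Lin28a and Esrrb, whose lowest and highest libraries met, and those of Pou5f1 and Nanog. After Klf4 transfection Mycn led (3.14 ± 0.47), followed by Myc (2.44 ± 0.25), Tfcp2l1 (2.14 ± 0.19) and Lin28b (1.99 ± 0.09), and each of these overlapped the next except Lin28b. Lin28a (0.912 ± 0.104), Esrrb (0.584 ± 0.101), Sox2 (0.104 ± 0.030) and Pou5f1 (0.051 ± 0.007) followed without overlap. Sox2 thus stood below Esrrb, the lowest of the tested factors.

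**Figure D4:**
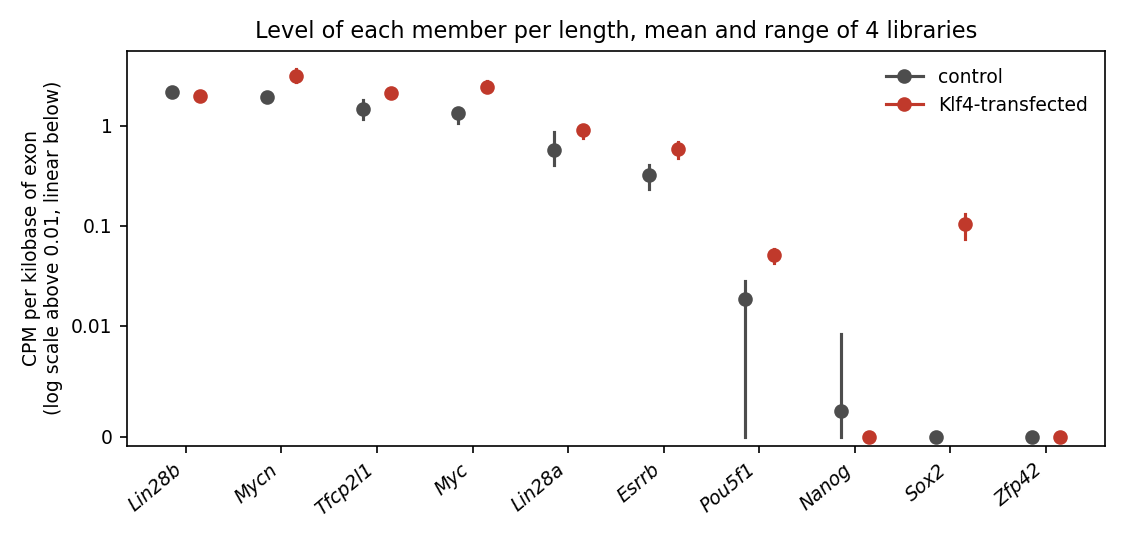
Level of each of the 10 factors in CPM per kilobase of exon (vertical axis, logarithmic above 0.01 and linear below), as the mean and range of 4 control and 4 Klf4-transfected libraries. Lin28b is highest in the controls at 2.19 and below Mycn, Myc and Tfcp2l1 after Klf4 transfection at 1.99, while Sox2 goes from 0 to 0.104.

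The genes most like each tested factor were those with the highest Pearson r in log2 CPM over the 8 libraries, among 12869 tested genes whose log2 CPM averaged 1 or more. The 8 libraries come in 2 groups and 2 batches that all genes share, so these values are descriptions. Esrrb was most like Dok5 (r = 0.993) and Cxcr4 (0.990), Tfcp2l1 like Ildr2 (0.997) and Sorcs2 (0.993), Myc like Stxbp3 (0.989) and Elk3 (0.987), and Mycn like Bahd1 (0.997) and Rtn4 (0.993). Lin28a was most like Cdk17 (0.982) and Styk1 (0.972), and Lin28b like Lamp1 (0.982) and Gm42372 (0.979).

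Of 26 further genes of naive and general pluripotency, 12 passed the filter, with 4 called higher, 1 lower and 7 not called (median log2 fold change 0.10), against 36.6% of all tested genes called, 21.1% higher and 15.5% lower. Those higher were Klf2, a KLF paralog of the naive state (0.33), and 3 low genes, named after their values were seen, whose control libraries did not reach the filter: Fgf4, Dnmt3l and L1td1. Fgf4, the autocrine growth factor of embryonic stem cells, had 0 reads in every control and 33, 18, 30 and 20 after Klf4 transfection, at least 8-fold over the floor. L1td1, an RNA-binding protein of pluripotent cells, had 3, 0, 4 and 2 reads in the controls and 47, 39, 62 and 52 after transfection, and Dnmt3l, a DNA methylation cofactor, had 1, 4, 2 and 1 against 26, 26, 38 and 32. Genes that pass only through the group in which they are high had to differ, so these 3 calls are given as a description only. Tet1, a methylcytosine dioxygenase, fell (-0.27, edgeR's adjusted p = 1.51e-05). Klf2 overlapped between groups and lost its call without control replicate 2, 3 or 4 and without Klf4-transfected replicate 1 or 4 (adjusted p up to 0.247).

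Primed pluripotency, the later state of the epiblast, was covered by 9 genes, of which 5 passed the filter and all 5 were called higher (median 0.90), against 21.1% of all tested genes. Of the 5, 2 passed only with the Klf4-transfected libraries, so the count and the median are a description. Zic2, a zinc-finger factor, rose from 1.25 ± 0.38 to 2.31 ± 0.30 CPM (SD, n = 4), Pou3f1, a POU factor, from 0.904 ± 0.198 to 1.47 ± 0.26 CPM, and Dnmt3b, a DNA methyltransferase, from 6.08 ± 0.44 to 7.15 ± 0.39 CPM. The other 2, the signalling factor Fgf8 and the mesoderm factor T (Brachyury), were named after their values were seen and are those 2: T had 0, 7, 4 and 1 reads in the controls and 84, 39, 86 and 78 after transfection, and Fgf8 had 4, 11, 2 and 2 against 54, 44, 116 and 79. Without control replicate 4, and likewise without Klf4-transfected replicate 4, 3 of these genes were called, with Pou3f1 (adjusted p up to 0.0592) and Dnmt3b lost. Dnmt3b also lost its call without control replicate 1 and without Klf4-transfected replicates 1 or 2 (adjusted p up to 0.141).

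LIF signals through the receptor pair Lifr and Il6st, the JAK kinases and STAT3, upstream of Klf4 and Tfcp2l1 in stem cells. Of 9 genes of this pathway 7 were tested, 4 were called higher, 2 lower and 1 not (median 0.18), against 21.1% and 15.5% of all tested genes. Socs3, the feedback inhibitor that STAT3 induces, rose most, from 29.9 ± 4.3 to 48.8 ± 3.7 CPM (SD over 4 libraries), by 0.71 on the log2 scale. The cytokine Lif (0.54) and the kinase Jak2 (0.22) rose as well, while both receptor genes, Lifr (-0.21) and Il6st (-0.14), fell. Without the batch term 3 of these genes were called, and Lif, Lifr and Il6st were not among them.

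Surface markers followed in reprogramming gave 6 of 9 higher and none lower (median 0.35), against 21.1% and 15.5% of all tested genes. Fut4 (-0.17), Pecam1 (0.13) and Icam1 (-0.03), named after their values were seen, were not called. Alpl, the alkaline phosphatase that stains pluripotent colonies, had 19, 8, 19 and 20 reads in the controls and 203, 163, 247 and 312 after Klf4 transfection, from 0.342 ± 0.119 to 4.54 ± 1.03 CPM (SD, n = 4). With 1 control library under the filter's level, Alpl passed only with the Klf4-transfected libraries. Its call, 1 of the 6, is therefore a description. Epithelial genes and genes that mark the starting fibroblasts in reprogramming moved in the same direction: Cd44 (0.79) and the fibroblast marker Thy1 (0.93) rose, and so did Ocln (0.72), Epcam (0.35) and Cdh1 (0.21), these 3 named after their values were seen. The rise of Cd44 differed between batches, with 0.62 in batch 1 and 0.96 in batch 2 (edgeR's interaction term, adjusted p = 0.015). Krt14, Sbsn, Dcn and Col1a1, of the keratinocyte and fibroblast markers given above, were called higher in the same comparison, and their part in these results was not tested. Without the batch term 4 of the 9 were called, with Cdh1 and Epcam lost.

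In the network of MYC and MAX partners, 13 genes were tested, with 6 called higher, 2 lower and 5 not (median 0.10), against 21.1% and 15.5% of all tested genes. Mycl, the paralog that can take the place of Myc in reprogramming, rose from 2.34 ± 0.59 to 9.21 ± 2.77 CPM (SD, n = 4), a log2 fold change of 1.97 ± 0.09 (SE; edgeR's adjusted p = 5.95e-14), so all of Myc, Mycn and Mycl were higher. The MAX-binding antagonists Mxd1 (0.94) and Mxd3 (0.27) rose too. Of further ones, named after their values were seen, Mnt rose (0.19), and Mxd4 (-0.06) and Mxi1 (0.11) were not called. Max, the shared partner (-0.14), and Mga (-0.23) fell.

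Of 24 growth genes that MYC is known to activate, none was called higher, 15 were called lower and 9 were not called (median -0.11), against 21.1% and 15.5% of all tested genes. The changes were small. Polr1b, a subunit of RNA polymerase I, fell from 41.4 ± 2.5 to 33.9 ± 1.2 CPM (SD over 4 libraries), a log2 fold change of -0.29, and the nucleolar genes Gnl3 (-0.23) and Nop58 (-0.21) fell as well. With scaling factors from abundant genes 12 were lower and 1, Fbl, was higher (median -0.08), and without the batch term 5 were lower. Of 4 genes that MYC is known to repress, 3 were called higher and 1 lower, against the same 21.1% and 15.5% of all tested genes. Those higher were Ndrg1 (0.87), Cdkn1a (0.51) and Cdkn2b (0.31). Gadd45a was lower (-0.10), a call lost without control replicates 3 or 4 or Klf4-transfected replicates 3 or 4 (adjusted p up to 0.168).

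Around LIN28 and let-7, 13 of 15 genes were tested, with 3 called higher, 4 lower and 6 not (median -0.06), against 21.1% and 15.5% of all tested genes. Of the 13, 2 passed the filter only with the Klf4-transfected libraries, and 1 of them, Igf2bp3, is among the higher calls. Genes of microRNA processing and let-7 turnover were among those lower: Dgcr8 (-0.17), the uridylase gene Tut4 (-0.16), which LIN28A recruits, and Dicer1 (-0.12). The let-7 targets Hmga1 (0.26) and Arid3a (0.35) rose, and Igf2bp3, named after its values were seen, had 3, 5, 4 and 2 reads in the controls and 14, 19, 40 and 14 after Klf4 transfection. The 6 not called, also named after their values were seen, were Drosha (-0.06), Tut7 (-0.06), Dis3l2 (-0.05), Trim71 (0.86), Igf2bp2 (0.45) and Arid3b (-0.10). The mature let-7 microRNAs were not measured. Without the batch term 4 of these genes were called.

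Relatives of the 10 factors were taken as 22 SOX, POU, ERR and grainyhead genes, of which 16 were tested, with 8 called higher, 3 lower and 5 not (median 0.30), against 21.1% and 15.5% of all tested genes. Of these 16, 4 passed the filter only with the Klf4-transfected libraries, and 3 of the higher calls are among them (Pou3f2, Pou3f3 and Grhl2), given as a description only. The relatives of Tfcp2l1 in the grainyhead group rose: Grhl3 from 0.952 ± 0.097 to 3.52 ± 0.36 CPM (SD over 4 libraries; 1.88 on the log2 scale) and Grhl1 from 5.40 ± 0.62 to 8.48 ± 0.67 CPM (0.65), while Ubp1, of the closer CP2 group, fell (-0.15) and Tfcp2 was not called (-0.13). Esrrg, the Esrrb paralog of mature β-cells, fell from 27.7 ± 2.3 to 21.6 ± 1.3 CPM (-0.36, edgeR's adjusted p = 2.02e-06). Among the SOX genes, Sox12 rose (0.61). So did Sox11 (0.44, a call lost without the batch term), and Sox15 was not called (0.57), both named after their values were seen. Sox4 fell (-0.09), a call lost without control replicates 3 or 4 or Klf4-transfected replicates 1, 3 or 4 (adjusted p up to 0.14). The neural POU factor Pou3f3, named after its values were seen, had 0 reads in every control and 27, 15, 29 and 34 after Klf4 transfection, at least 8.26-fold over the floor, and Pou3f2 had 1, 0, 1 and 2 reads against 33, 48, 27 and 49.

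**Figure D5:**
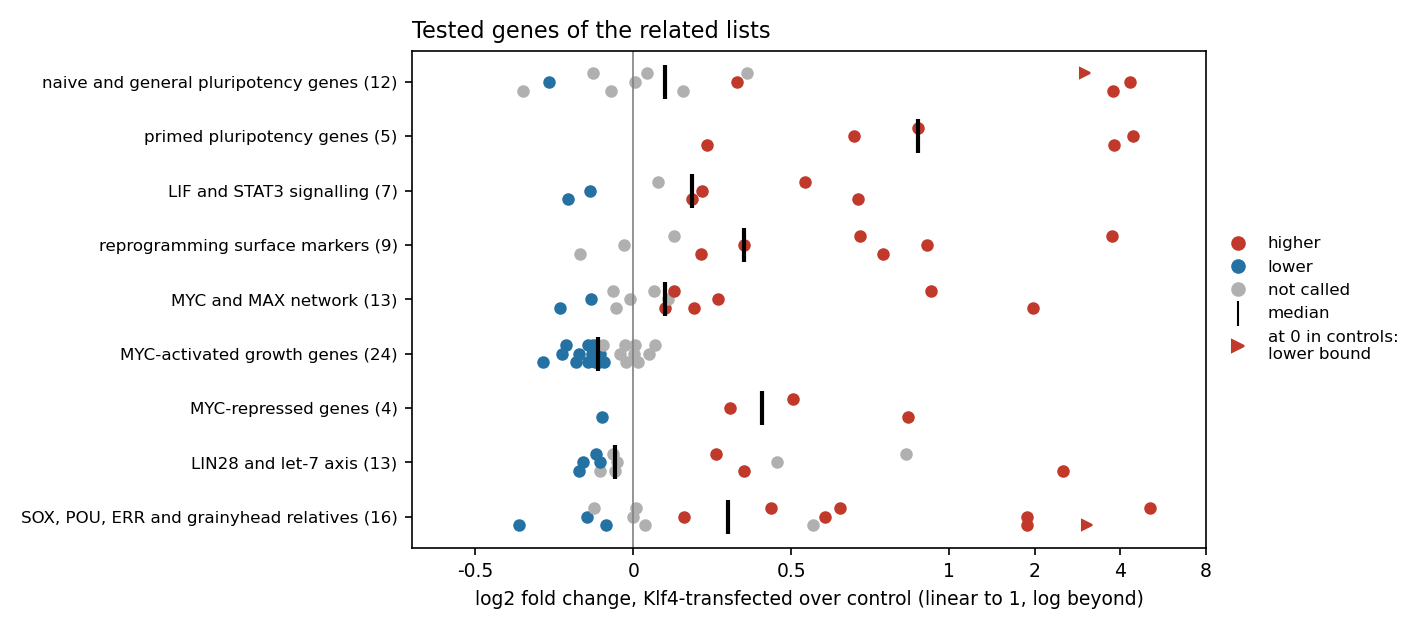
Log2 fold change, Klf4-transfected over control (horizontal axis, linear to 1 and logarithmic beyond), of the tested genes in each list, number tested in brackets: red for higher, blue for lower, grey for not called, black bars for medians, and right-pointing marks for the lower bound of Fgf4 and Pou3f3, which had no reads in controls. The 24 MYC-activated growth genes lie between -0.29 and 0.07. The 5 tested primed genes all lie above 0. Of these, 2 (Fgf8 and T) passed the filter only with the Klf4-transfected libraries, so their place above 0 is a description.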

How the data were processed

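The authors deposited raw counts of reads for each gene, with a column for each of the 8 libraries, neither normalised nor pooled. The submitters' processing notes name FastQC, STAR, featureCounts, edgeR and the build mm10, without versions; the name of the deposited table also mentions cutadapt, a read trimmer, and the annotation and strand setting are not given in the sources used here. All 55536 identifier and symbol pairs matched GENCODE M21 (GRCm38), used for coordinates and exon lengths. The extraction text in the labels mentions islets, while the titles and cell line labels give MIN6.

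The 10 factors, the gene lists and the cell type markers were chosen with earlier results of these data known. Genes were kept by filterByExpr (edgeR 4.0.16, limma 3.58.1, R 4.3.3; minimum count 10, by group), scaled with TMM factors (0.996 to 1.005) and tested with edgeR's quasi-likelihood test on batch and plasmid, following the series' own design. P-values were adjusted by Benjamini-Hochberg over all 18266 tested genes, with a threshold of 0.05. The procedure was tested on simulated counts, drawn with a common dispersion for all genes and no batch effect, so its handling of batches was not tested. Named from each list were the up to 3 highest and 3 lowest calls whose log2 CPM averaged 0 or more, beside the 10 factors, genes overlapping them and the 2 genes most like each tested factor. Any other gene of the lists was named after its values were seen, also where the text beside it does not say so.

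Same-numbered libraries of the 2 groups deviated together (r = 0.614, 0.459, 0.57 and 0.516 for replicates 1 to 4, over 10485 genes), and other-numbered libraries of the same batch did so too (r from 0.459 to 0.574). With batch removed, r was -0.046 in batch 1 and 0.078 in batch 2. The replicate numbers come from the sample titles. Alternatives were no batch term, a replicate block, DESeq2 1.42.0 size factors and Wald test, TMM factors from abundant genes (mean log2 CPM of 6 or more), limma-voom, no filter, a filter that asks for 1 CPM in 4 or more libraries, the table without its 10 most abundant genes, and each library left out in turn; a filter given the design matrix was added after the data had been seen. Promoter sequences are from RefSeq; figures were drawn with Python 3.11.15.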

Additional observations from a re-analysis of the deposited data

Results flagged for a closer look

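Nanog in control replicate 4, at 0.0207 CPM, stood apart from the 3 other controls, which were at 0, and this is a single read. The total of Klf4-transfected replicate 2, 45420000 counts, lay below those of the 3 other libraries of its group, 51890000 to 52730000. In both cases 1 library was distant from the rest. Chance flags about 1 in 20 groups, 20 groups were checked, and 2 were flagged. With the 3 other controls at 0, any single read is flagged, so that rate does not hold for Nanog. Without Klf4-transfected replicate 2 the 5 factors called higher remained so and Lin28b was called lower (log2 fold change -0.17, edgeR's adjusted p = 0.0325).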

How the results depend on the processing

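Over 18 alternatives, Myc, Mycn, Lin28a, Esrrb and Tfcp2l1 stayed higher after Klf4 transfection and past the threshold, with log2 fold changes of 0.78 to 0.93, 0.61 to 0.71, 0.58 to 0.92, 0.81 to 0.92 and 0.50 to 0.62. Lin28b stayed below 0 (-0.19 to -0.10) and was called lower in 6 of the 18: with DESeq2 size factors (-0.14, adjusted p = 0.0483), with the 10 most abundant genes removed (-0.15, 0.0408), with the filter given the design matrix (-0.15, 0.0357), and with the 3 omitted libraries named in the report. The count of factors called was 5 or 6, the sixth being Lin28b in these settings and Sox2 with no filter on low counts. Over all genes, 6684 calls became 4116 with no batch term and lay between 5889 and 7074 with a library left out. With factors from abundant genes, 4387 genes were higher and 1638 lower, and all log2 fold changes shifted by a median of 0.04. With the replicate block 6284 genes and 5 factors were called, and it changed no call of a factor; among the listed genes it ended the calls of Dnmt3b, Nop16, Gadd45a and Sox4. Of 67 listed genes called, 39 kept the call under every alternative that tested them and 8 lost it with a library left out. The filter at 1 CPM left 2 calls in the naive list, 3 in the primed list and 7 among the relatives. Fewer genes were tested with it, and Sox4, which was still tested, lost its call. No batch term left 5 in the MYC and MAX network, and the cause was not tested. Depth limits Pou5f1, Sox2, Nanog and Zfp42, with at most 14 reads in a library.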
